A study of Mus musculus and blank sample with 191 samples.

Results

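Cell-cycle genes were followed in the mouse uterus, in regions of epithelium and of stroma captured one at a time for RNA measurement. The set was a list of 42 gene symbols among the 19962 targets of the count table, taken by name, and 40 of them were among the 14881 targets that the study kept after its own filter on low signal. Aurka and Ccna2 were not kept: their median level over the regions was 1.25 and 0.924 times that of the negative probes, which match no mouse transcript and so measure background. Of the 40 kept members, 17 belonged to an S-phase class (G1/S control and DNA replication), 22 to a mitotic class (G2 and mitosis), and Ccnd1 stood apart as the cyclin of G1. The PV/N animals were heterozygous for the Thra1 PV knock-in, a C-terminal frameshift that turns thyroid hormone receptor TRα1 into a dominant-negative receptor in every cell that uses the gene, and the N/N animals were their wild-type counterparts. Ages in the labels, read here as months, ran from 2.4 to 6.3 in the 6 PV/N animals and from 4.0 to 9.0 in the 8 N/N animals, and no strain or treatment was given. The study's methods matched mice for the estrous cycle at metestrus and took cores from tissue blocks. A pathologist chose the regions by morphology and by staining for cytokeratin and smooth muscle actin, and the epithelial label did not separate the lining from the glands.

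A dividing cell makes these genes in order. Ccnd1 answers growth signals in G1, E2F factors then switch on cyclin E and the replication genes, and in G2 the FOXM1, MYBL2 and NF-Y factors drive the genes of mitosis, which the DREAM complex silences in resting cells. In the cycling uterus, estradiol drives epithelial cells into S phase and progesterone halts them, so that the phase of the cycle sets how much division an epithelium shows. The list therefore reads 2 different moments: replication, through the MCM helicase and its loaders, and mitosis, through kinases, centromere proteins and spindle motors.

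The promoters of the 2 classes carried different letters in the genome. RefSeq promoter windows, 250 bases before to 50 bases after the start of transcription on GRCm38.p6, were found for 33 of the 42 members. The E2F letters TTCGCGC or TTGGCGC, on either strand, were in 5 of the 14 S-phase members with a window (Cdt1, Mcm3, Mcm5, Mcm6 and Mcm7), in 3 of 19 mitotic members (Ccnb1, Cdk1 and Mki67) and in 3.89% of all 32851 windows. The letters TTTGAA of the cell cycle homology region were in 1 of 14 S-phase members (Mcm2), in 14 of 19 mitotic members and in 17.9% of all windows. CCAAT, the letters bound by NF-Y, was in 8 of 14, in 17 of 19 and in 37.4%. TTTGAA and CCAAT stood together in 1 of 14, in 14 of 19 and in 6.95%. Members were counted by gene, with a match in any window of the gene. Counted in that way over all 27025 gene symbols, the shares were 4.47%, 20.2%, 41.1% and 7.97%, in the same order. TTGGCGC overlaps the reverse complement of TTCGCGC where both are read in 1 stretch, and a match is a description of letters, not of binding. Part of the window upstream of the start is shown for 5 members on which the results below turn, written 5′ to 3′ on the gene's strand, with the searched letters of either strand in capitals: Mcm6, a helicase subunit, at chr1:128359706-128359824 (minus strand); Cdk1, the mitotic kinase, at chr10:69352913-69353130 (minus); Ube2c, a ubiquitin carrier of the anaphase-promoting complex, at chr2:164769691-164769928 (plus); Kif11, a spindle motor, at chr19:37376322-37376381 (plus); and Mki67, the gene of the Ki-67 antigen, at chr7:135716380-135716577 (minus).
Mcm6: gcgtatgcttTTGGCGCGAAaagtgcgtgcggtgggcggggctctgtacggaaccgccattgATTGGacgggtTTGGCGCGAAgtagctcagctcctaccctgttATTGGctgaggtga
Cdk1: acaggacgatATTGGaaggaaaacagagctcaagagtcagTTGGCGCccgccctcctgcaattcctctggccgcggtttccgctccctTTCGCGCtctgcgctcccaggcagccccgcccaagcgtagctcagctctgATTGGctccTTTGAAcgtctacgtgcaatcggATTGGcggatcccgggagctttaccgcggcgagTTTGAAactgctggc
Ube2c: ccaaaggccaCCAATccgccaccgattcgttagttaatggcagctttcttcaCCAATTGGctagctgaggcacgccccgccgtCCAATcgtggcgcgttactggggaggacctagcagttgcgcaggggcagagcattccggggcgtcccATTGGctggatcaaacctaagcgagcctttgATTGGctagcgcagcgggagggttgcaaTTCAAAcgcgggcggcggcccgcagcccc
Kif11: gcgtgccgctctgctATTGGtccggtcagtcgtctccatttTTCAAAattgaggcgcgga
Mki67: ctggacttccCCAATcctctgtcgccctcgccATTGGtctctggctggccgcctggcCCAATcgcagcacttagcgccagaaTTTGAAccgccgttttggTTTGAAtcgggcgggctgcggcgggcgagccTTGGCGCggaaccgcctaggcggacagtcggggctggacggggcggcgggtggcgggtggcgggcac

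Mcm6 held 2 stretches in which both E2F forms overlap, and no TTTGAA. Ube2c and Kif11 held TTTGAA with CCAAT and neither E2F form, while Cdk1 and Mki67 held all 3 kinds of letters.

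Signal was read as counts per region on 95 regions of the first collection plate, 31 of PV/N epithelium, 21 of PV/N stroma, 29 of N/N epithelium and 14 of N/N stroma. Region totals ran from 61691 to 3130397 counts with a median of 653387. The animal was the replicate: counts were added over the regions of 1 animal and compartment, which gave 14 epithelial sums and 13 stromal sums, since WT6 had no stroma on that plate. Levels below are log2 CPM of these sums (counts scaled to a common library total, on the log2 scale), and levels of different genes are not compared, since their probes differ in efficiency. Class means, and the difference between the 2 class means, are compared only from animal to animal. In tissue regions, fewer dividing cells and less RNA per dividing cell cannot be told apart. The compartment labels held: all 8 columnar epithelial markers were higher in epithelium with a median log2 fold change of 3.91, all 8 fibroblast markers were higher in stroma with a median of -2.77, and the 6 smooth muscle, 9 leukocyte and 5 endothelial markers were all higher in stroma. Of the 8 squamous and basal markers only 2 were kept.

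Libraries stood apart in 3 ways that touched the members. PV2 had 1 region in each compartment, the shallowest of all, and only 8 of its 40 members in epithelium and 12 in stroma were over 2 times the negative-probe level. Its Mki67, Top2a and Cdk1 shared the same epithelial value, 3.99, the value of 1 count in that sum. PV4 was the highest of the 14 animals in epithelium for 39 of the 40 members, and PV2 for the other, Mybl2. PV4 was the highest for 9.91% of all genes. Region 7, an epithelial region labelled PV1, did not resemble the other 14 epithelial regions of PV1. Over 4401 genes that were no members and had a mean count above 40, its profile relative to each gene's mean correlated at r = -0.32 with the mean of PV1's other regions and at r = 0.75 with the mean of PV4, where the other 14 had between -0.48 and -0.28 with PV4. With the mean of PV1's remaining regions the other 14 had r from 0.07 to 0.85, with a median of 0.74. Of these, regions 2, 70, 73, 75 and 92 were most like WT6. By the same measure 39 of the 60 epithelial regions were most like their own animal, PV4's 8 regions among them. These correlations run across genes of 1 region and describe likeness only. Both animals were PV/N, the label was kept, and results resting on PV4 or region 7 are given with and without them.

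In single epithelial regions, the members separated PV4 from the rest. On the scale of log2 of the study's Q3 value plus 1, a count divided by the upper-quartile level of its region, the S-phase class mean of PV4's 8 regions lay between 5.25 and 6.55 and their mitotic class mean between 3.94 and 5.60. Region 7 of PV1 had 5.70 and 5.41, against 2.87 to 3.42 and 2.27 to 2.90 in the other 14 PV1 regions. Its Mki67 value was 6.21. Apart from these 2 sources, the 51 remaining epithelial regions reached at most 5.22 for the S-phase class and 4.41 for the mitotic class. Region 7 aside, all PV4 regions were above every other animal's for the S-phase class, while PV4's lowest mitotic value lay among theirs. Regions of 1 animal differed less than animals did: the SD of the S-phase class mean was 0.434 within animals and 0.741 between animal means in epithelium, and 0.193 and 0.235 in stroma.

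**Figure D1:**
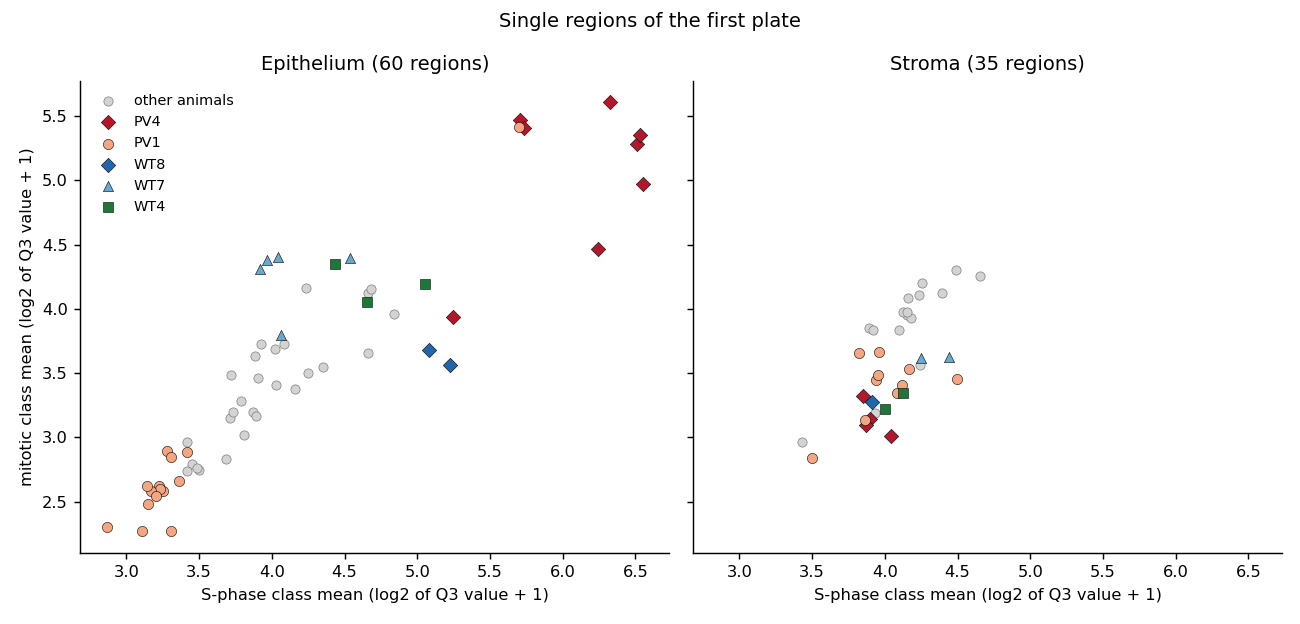
Each point is 1 region of the first plate, with the S-phase class mean on the x axis and the mitotic class mean on the y axis (log2 of Q3 value plus 1), in epithelium (left, 60 regions) and stroma (right, 35 regions). PV4's 8 epithelial regions and region 7 of PV1, at 5.70 and 5.41, lie farthest to the right, away from the other PV1 regions. PV4's lowest mitotic class mean, 3.94, lies among those of other animals. In stroma PV4 lies among the others.

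Summed per animal, the same order appeared. In PV/N epithelium the S-phase class mean was 5.31 ± 0.85 (SD, n = 6), with a lowest value of 4.57 in PV1, a median of 5.13 and a highest of 6.93 in PV4. In N/N epithelium it was 4.77 ± 0.61 (SD, n = 8), from 4.17 in WT3 through a median of 4.50 to 5.80 in WT8. The mitotic class mean was 4.65 ± 0.76 in PV/N epithelium, from 3.98 in PV3 to 6.01 in PV4, and 4.15 ± 0.58 in N/N epithelium, from 3.49 in WT3 to 5.00 in WT7. The ranges of the 2 genotypes overlapped in both classes. In stroma the animals lay close together, at 4.63 ± 0.25 (PV/N, n = 6) and 4.67 ± 0.17 (N/N, n = 7) for the S-phase class and at 4.19 ± 0.33 and 4.26 ± 0.30 for the mitotic class.

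The 2 classes did not rank the N/N animals alike. WT8 had the highest S-phase class mean of that genotype, 5.80, with a mitotic class mean of 4.29, a difference of 1.52 that was the widest of all epithelial sums. WT7 had the highest mitotic class mean, 5.00, over an S-phase class mean of 4.91, a difference of -0.09 and the lowest. WT4 was high in both, at 5.58 and 4.99. Below those 3 lay WT1, WT2, WT3, WT5 and WT6, whose S-phase class means ran from 4.17 to 4.54. Among PV/N animals the difference was smallest in PV5, 0.14, and largest in PV4, 0.92. Set against WT7, WT8 had higher means of the helicase subunits (6.74 against 5.59), of the loading and firing genes (5.31 against 4.40) and of the G1/S regulators (4.63 against 3.72), and a lower mean of the centromere genes (4.01 against 4.91). The 2 epithelial regions of WT8 were unlike each other over the genes that were no members (r = -0.01), and 1 of them was most like WT4 (r = 0.70). No test was made of class means, and each animal is 1 sum.

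**Figure D2:**
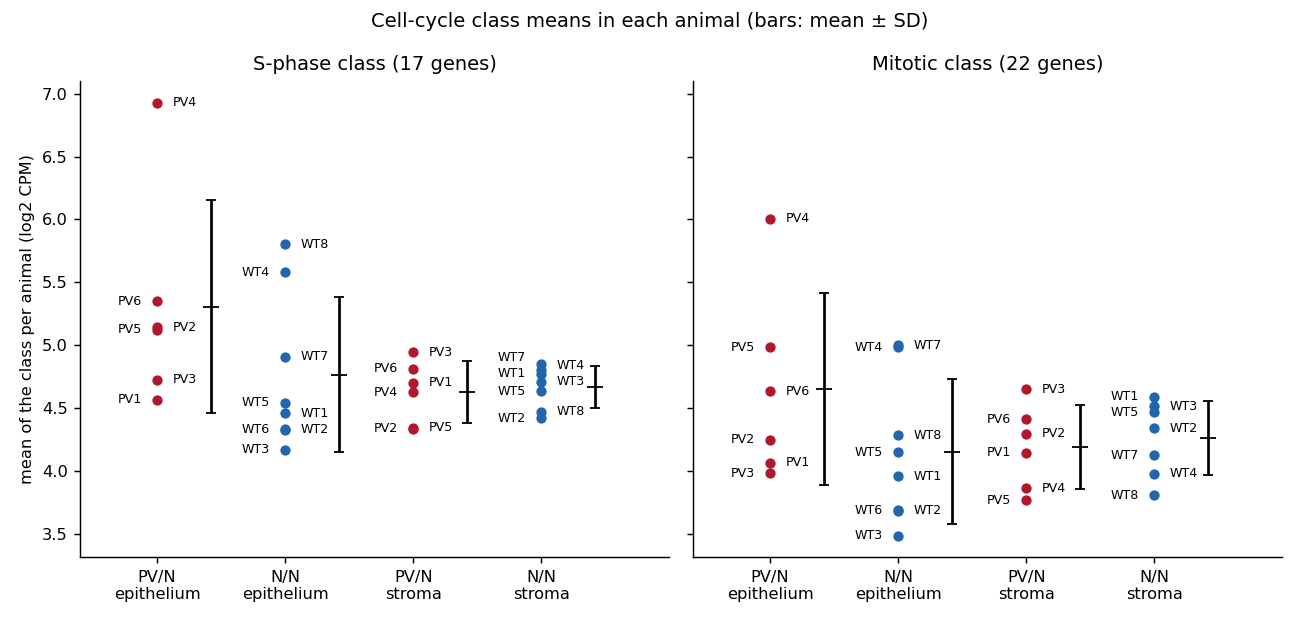
Mean log2 CPM over the S-phase class and over the mitotic class in each animal, by genotype and compartment, where points are animals and bars are mean ± SD. PV4 is the top point in epithelium in both panels, at 6.93 and 6.01, and in stroma all animals lie within 4.34 to 4.94 for the S-phase class.

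Members varied between animals more in epithelium than in stroma. The SD between animals of 1 genotype was wider in epithelium for 37 of the 40 members, against 44.9% of all genes. The median SD of the members was 0.754 in epithelium and 0.470 in stroma, against 0.425 and 0.450 for all genes. The steepest case was Mcm6, with 1.08 in epithelium and 0.20 in stroma. Bub1 and Cenpe, which act at the kinetochore, and Cdt1, which loads the helicase, were the 3 with the wider spread in stroma. Without PV4 the count was 29 of 40, against 44.6% of all genes, and without region 7 of PV1 it was 39. These counts have no test.

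**Figure D3:**
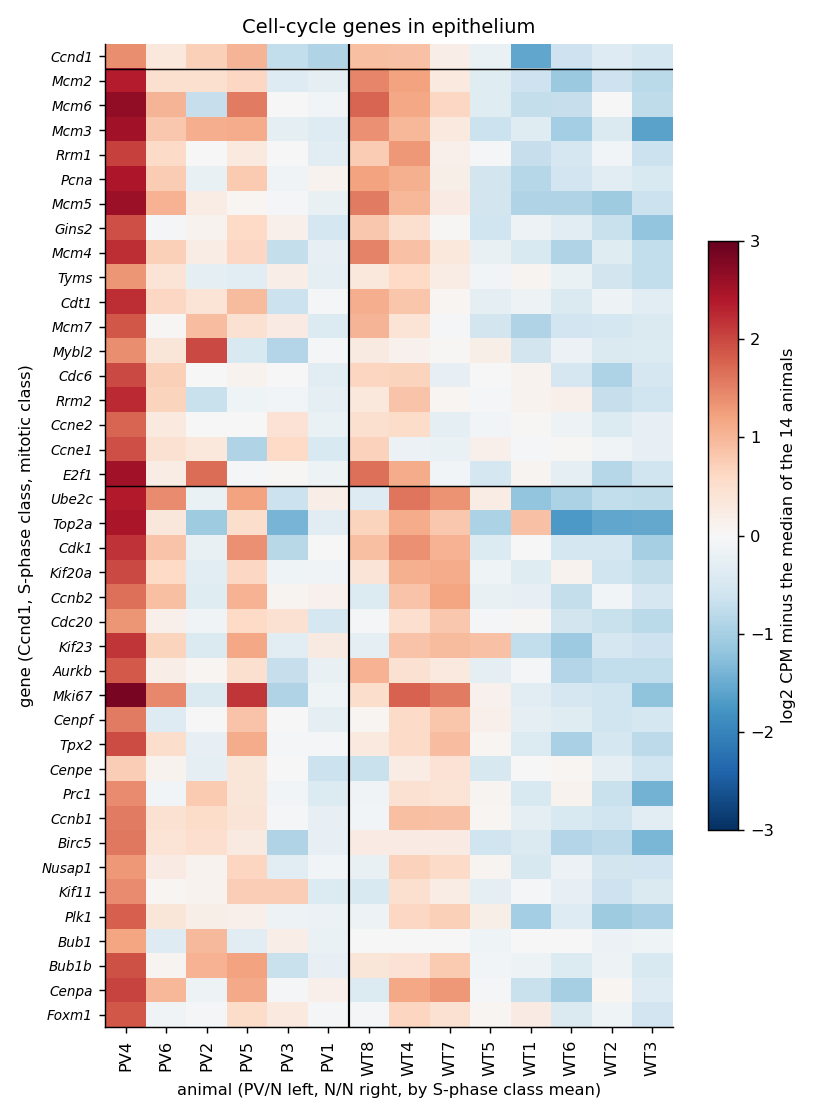
Log2 CPM of each of the 40 members in epithelium minus the median over the 14 animals, with PV/N animals on the left and N/N animals on the right. PV4 is the strongest column for 39 members, and WT4, WT7 and WT8 are the strongest columns on the N/N side.

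The first comparison asked which members differed between epithelium and stroma of the same 13 animals. Tested with edgeR's quasi-likelihood test with the animal as a block and Benjamini-Hochberg adjustment over all genes, 28.4% of the 14881 genes were higher in epithelium and 34.6% were higher in stroma at an adjusted p under 0.05. Of the members, 6 were higher in epithelium and 0 in stroma, a share of 15.0% that is below the background. These 6 were Ccnd1 and 5 of the 17 S-phase members, and 0 of the 22 mitotic members passed. The S-phase share, 29.4%, was close to the 28.4% of all genes, so it is no result about replication genes. The median log2 fold change was 0.40 for the S-phase class and 0.19 for the mitotic class, against -0.05 for all genes, and 37 of the 40 values were positive. The difference between the 2 classes was not tested. No member was higher in epithelium in all 13 animals, as 8.76% of all genes were.

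Ccnd1, which carries growth signals to the G1 kinases, differed most. In epithelium it lay between 5.22 and 7.70 with a median of 6.50 in N/N animals and between 5.88 and 8.18 with a median of 7.30 in PV/N animals. In stroma it lay between 4.26 and 5.98 with a median of 4.97 in N/N and between 4.40 and 6.39 with a median of 5.41 in PV/N. The log2 fold change was 1.45 ± 0.26 (SE, edgeR adjusted p = 9.76e-05), and it was higher in epithelium in 11 of 13 animals. The exceptions were PV1 and WT1.

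Of the 6 subunits of the MCM helicase, which unwinds DNA at origins, 3 passed. Mcm2 lay between 4.32 and 6.89 in N/N epithelium and between 4.48 and 5.37 in N/N stroma, so that the top of the epithelial range was well above the stroma while the bottom was not. In PV/N animals it lay between 5.05 and 7.80 in epithelium and between 4.37 and 5.39 in stroma. Its log2 fold change was 0.87 ± 0.26 (edgeR adjusted p = 0.00629), higher in 11 of 13 animals. Mcm6 (0.69 ± 0.26, adjusted p = 0.0246, 8 of 13) and Mcm3 (0.62 ± 0.27, adjusted p = 0.0479, 10 of 13) also rose in epithelium. The other 3 subunits, Mcm4, Mcm5 and Mcm7, had values of 0.42, 0.48 and 0.28 that did not pass. Rrm1, the large subunit of ribonucleotide reductase, rose by 0.53 ± 0.19 (adjusted p = 0.0212, 11 of 13), and Pcna, the sliding clamp of the replicative polymerases, by 0.50 ± 0.19 (adjusted p = 0.0304, 10 of 13). Rrm2, the small subunit of the same reductase, had 0.16 ± 0.27.

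The mitotic genes nearest the threshold were Ube2c (0.71 ± 0.31, edgeR adjusted p = 0.0528), Cdk1 (0.55 ± 0.25, adjusted p = 0.0632) and Top2a, the topoisomerase that untangles chromosomes (0.59 ± 0.34, adjusted p = 0.141). Mki67 had 0.21 ± 0.40 (adjusted p = 0.664) and was higher in epithelium in 7 of 13 animals. Its epithelial range, 3.23 to 7.28 over both genotypes, took in its whole stromal range of 3.32 to 5.56.

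Single animals decided several of these calls. Without PV4, 3 members passed: Ccnd1 at 1.31 and Mcm2 in epithelium, and Foxm1, a driver of mitotic transcription, at -0.36 (edgeR adjusted p = 0.0342), which was then higher in stroma. Without PV4 the members' median was 0.06, with 21 values positive and 19 negative. Without region 7 of PV1, 3 passed (Ccnd1, Mcm2 and Pcna). Of all 14881 genes, 4122 were higher in epithelium without PV4 and 4206 without region 7. Within the N/N animals alone 1 member passed, Ccnd1, with a median over members of 0.07, and within the PV/N animals alone 10 passed with a median of 0.64. Over all genes, 3431 were higher in epithelium in N/N animals alone and 3106 in PV/N animals alone. Leaving out PV5 or WT8 gave 3 members, and leaving out WT3 gave 11. Over all genes these settings gave 4164, 4232 and 4002 higher in epithelium.

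**Figure D4:**
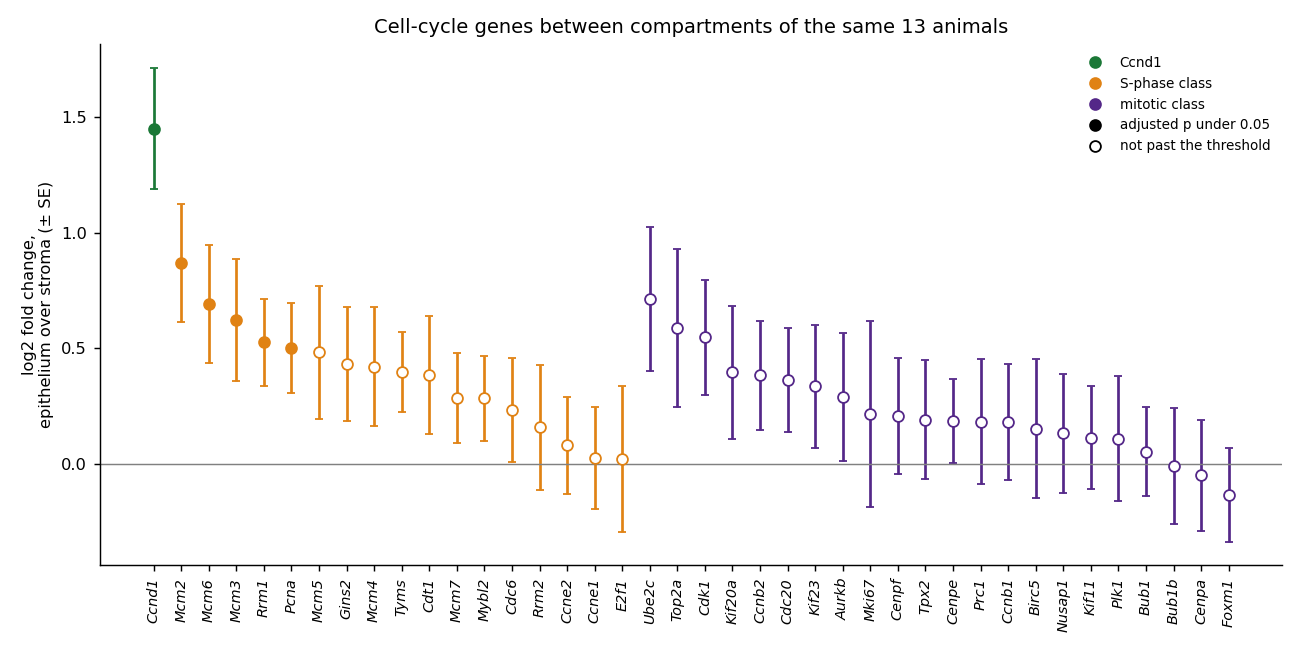
Log2 fold change of each member, epithelium over stroma, in the same 13 animals, with bars of ± 1 SE and filled points for an adjusted p under 0.05. Ccnd1 at 1.45 stands above all, the 5 other filled points are S-phase members, and the mitotic members spread from -0.13 to 0.71 with none filled.

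The second comparison asked whether the members differed between PV/N and N/N epithelium. No gene passed the edgeR test in this comparison, 0% of 14881, and so no member did. At an unadjusted p under 0.05 there were 1223 genes, 657 of them with a positive fold change (4.42%), and DESeq2 called 28 genes and 0 members. All 40 members had positive values with a median log2 fold change of 0.77, against -0.01 over all genes, and 15 had an unadjusted p under 0.05. The median was 0.81 for the S-phase class and 0.75 for the mitotic class. No member's PV/N values lay wholly above or below its N/N values, and over all genes 0.134% did so.

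Kif11 had the lowest p, on values near background in N/N epithelium, where its median was 1.84 times the negative-probe level and 2 of 8 animals were over 2 times it. Its epithelial level was 4.32 ± 0.65 in PV/N animals, with a lowest of 3.47, a median of 4.30 and a highest of 5.31, and 3.71 ± 0.37 in N/N animals, with 3.27, 3.62 and 4.37. The upper N/N animals lay inside the PV/N range. The log2 fold change was 0.79 ± 0.28 (edgeR p = 0.0112, adjusted p = 0.518). Of the other mitotic members, Birc5, a subunit of the chromosomal passenger complex, had 0.89 ± 0.35, Tpx2, a spindle assembly factor, had 0.90 ± 0.36, and Ccnb2, a cyclin partner of Cdk1, had 0.74 ± 0.34.

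The 4 S-phase members with the lowest p had edgeR p from 0.0269 to 0.0394 and adjusted p from 0.564 to 0.592. Ccne1, Mcm7 and Mcm3 came close behind, with edgeR p from 0.0396 to 0.0409, so this order says nothing about roles. In N/N epithelium the medians of Ccne2 and Cdc6 were 2.18 and 2.33 times the negative-probe level. Ccne2, the cyclin that drives S-phase entry, had 0.71 ± 0.30. Cdc6 and Cdt1, which load the helicase onto origins, had 0.87 ± 0.36 and 0.85 ± 0.38, and Gins2, part of the active helicase, had 0.85 ± 0.38. Pcna ran from 6.51 through a median of 7.15 to 9.15 in PV/N epithelium and from 5.87 through 6.33 to 7.93 in N/N epithelium, with a log2 fold change of 0.87 ± 0.42 (edgeR adjusted p = 0.611). Next below PV4 came the N/N animals WT8 and WT4, at 7.93 and 7.79.

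Mki67 transcript, whose protein the study stained, was measured per animal at 7.28 in PV4, 6.57 in PV5, 5.87 in PV6, 4.31 in PV1, 3.99 in PV2 and 3.54 in PV3. In N/N animals it ran from 3.23 in WT3 through a median of 4.33 to 6.00 in WT7 and 6.20 in WT4. Both genotypes thus held animals near the bottom and near the top, and 3 of the 6 PV/N animals were above the N/N median. The lowest values lay near background, at 0.956 times the negative-probe level in PV2, 1.43 in PV3, 1.51 in WT3 and 1.84 in WT6. Their order is therefore not read. The log2 fold change was 1.11 ± 0.55 (edgeR adjusted p = 0.611). In PV1 the value was 3.05 without region 7. Ccnd1 had a log2 fold change of 0.49 ± 0.40.

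The size of the positive values, and their unadjusted p, rested on PV4. Without PV4, 30 members were positive and 10 negative, where 7450 of all 14881 genes were positive. The members' median was then 0.13, and 0 had an unadjusted p under 0.05. Mki67 then had 0.46 ± 0.56, Pcna 0.22 ± 0.35, Mcm6 0.28 ± 0.45 and Kif11 0.36 ± 0.26. Without region 7 of PV1 the median was 0.72 and 2 members had an unadjusted p under 0.05. PV/N animals were younger: with age as a covariate the median was 0.40 with all 40 positive and 0 under 0.05, and among animals aged 4 to 6.3 months it was 0.65 with all 40 positive and 1 under 0.05. With the difference of the columnar and fibroblast marker levels as a covariate it was 1.17 with 30 of 40 under 0.05 and a lowest adjusted p of 0.296 in edgeR. Of all 14881 genes, 1489 were under 0.05 with that covariate, 1491 with age and 1415 at ages 4 to 6.3 months. Without PV4 there were 951 such genes, and without region 7 there were 1106. On both plates together the members' median was 0.25. On the second plate alone it was -0.16 with 35 of 40 negative, but compartment labels on that plate went against the tissue markers. By the columnar minus fibroblast marker level, 36 of its 94 regions lay on the side of the other compartment, against 0 of 95 on the first plate. Set against the label of the next region in order, 13 of 93 did. Values from that plate, alone or added to the first, are therefore shown only as alternatives.

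**Figure D5:**
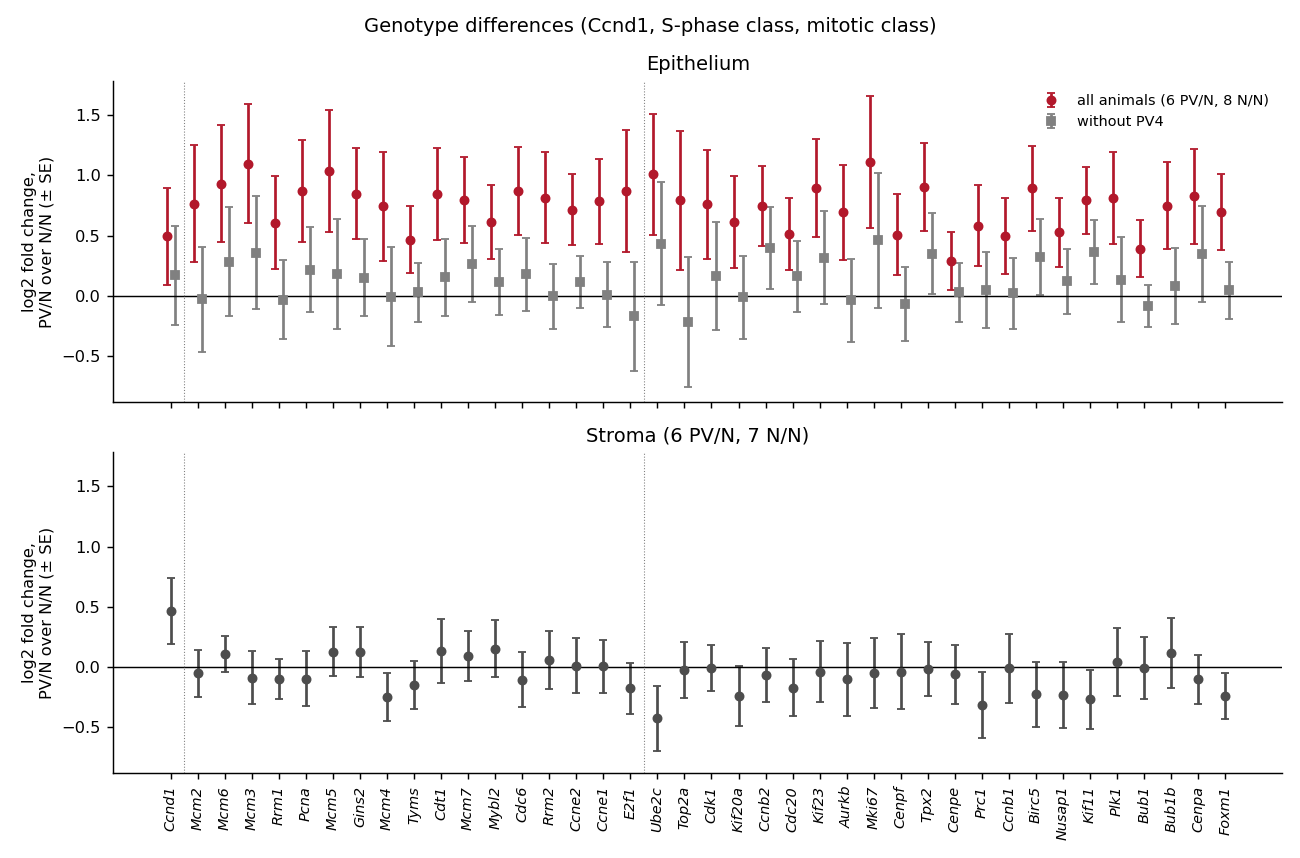
Log2 fold change of each member, PV/N over N/N, with bars of ± 1 SE, in epithelium with all animals (coloured circles) and without PV4 (grey squares), and in stroma (lower panel). With all animals every epithelial point is above 0, without PV4 the points gather near 0 with a median of 0.13, and the stromal points lie around 0.

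In stroma the members' values lay on both sides of 0. No gene passed in edgeR, 0% of 14881, with 524 genes at an unadjusted p under 0.05, 316 of them positive (2.12%), and DESeq2 called 2 genes and 0 members. The members' median was -0.05, with 12 positive and 28 negative values and 0 members under 0.05. The widest differences were those of Ccnd1, 0.47 ± 0.27, and Ube2c, -0.43 ± 0.27. Ube2c had a median of 2.02 times the negative-probe level in PV/N and 2.87 in N/N stroma. Mki67 was 4.64 ± 0.79 in PV/N (n = 6) and 4.78 ± 0.71 in N/N stroma (n = 7), a log2 fold change of -0.05 ± 0.29. PV4, the highest animal in epithelium, was the highest in stroma for 2 members, and its stromal Mki67, 4.06, was below the median of both genotypes.

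Whether the genotype difference differed between compartments was tested as an interaction within the 13 animals that had both. No gene passed in edgeR, 0% of 14881, with 1066 genes at an unadjusted p under 0.05, 489 of them positive (3.29%), and DESeq2 called 1 gene and 0 members. The members' values were positive for 39 and negative for Ccnd1 (-0.15 ± 0.54), with a median of 0.64. The members with an unadjusted p under 0.05 were Ube2c (1.36 ± 0.56, adjusted p = 0.657), Pcna (0.79 ± 0.35, adjusted p = 0.679) and Kif11 (0.88 ± 0.41, adjusted p = 0.683). Ube2c lay near background in N/N epithelium and PV/N stroma, with medians of 2.16 and 2.02 times the negative-probe level. In PV/N epithelium and N/N stroma it had 6.41 and 2.87. For Kif11 the same medians were 1.84 and 2.07, against 2.94 and 2.52. Without PV4 the members' median fold change was 0.09, with 25 positive and 15 negative values and none under 0.05. Without region 7 of PV1 the median was 0.46, with none under 0.05. The epithelial comparison, the stromal one and this one share animals: WT6 was in the first alone, and the other 13 were in all 3.

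Other genes of the same pathway had positive values in the epithelial genotype comparison too. Of 20 kept genes of a second replication list, 6 (30.0%, near the background of 28.4%) rose in epithelium over stroma: the ligase Lig1 (0.65), the histone chaperones Nasp (0.56) and Chaf1b (0.56), the hemimethylated-DNA reader Uhrf1 (0.74), the phosphatase Cdc25a (0.51) and the histone mRNA binding protein Slbp (0.44). All 20 had positive values in PV/N over N/N epithelium, with a median of 0.68 and 7 at an unadjusted p under 0.05, and without PV4 15 were positive, the median was 0.12 and 2 were under 0.05. Of 19 genes of a second mitosis list, 3 (15.8%, below the background) rose in epithelium, the checkpoint gene Mad2l1 (0.89), the cytokinesis gene Ect2 (0.78) and Cks2 (0.56), a Cdk1 partner. All 19 were positive in PV/N over N/N epithelium, with a median of 0.65 and 9 under 0.05, and without PV4 17 were positive, the median was 0.088 and 1 was under 0.05. Of all genes 4.42% were positive and under 0.05 with PV4, and 3.31% without it. The lowest p on this list was that of Hmmr, a spindle protein (1.12 ± 0.28, edgeR p = 0.000796), which missed the adjusted threshold and had 0.72 ± 0.27 without PV4.

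Inhibitors of the cycle had values of both signs. Of 12 inhibitors and pocket proteins, Btg2, an antiproliferative gene, rose in epithelium (0.97 ± 0.17), while 3 were higher in stroma: Cdkn1c, the p57 inhibitor (-1.97 ± 0.18), Rb1, the retinoblastoma gene (-0.56 ± 0.13), and Ccng2 (-0.39 ± 0.14). The share higher in epithelium was 8.33%, against 28.4% of all genes, and the 3 of 12 in stroma stand against 34.6%. In PV/N over N/N epithelium their median was 0.11, with 7 positive and 5 negative. Cdkn1a, the p21 inhibitor and a p53 target, had 1.45 ± 0.29 in epithelium (edgeR p = 0.000112, adjusted p = 0.128) and 1.01 ± 0.34 in stroma (p = 0.00774), neither past the adjusted threshold, and -0.05 ± 0.18 between compartments. Without PV4 it had 1.36 ± 0.31 in epithelium and 1.23 ± 0.31 in stroma, again not past the threshold. Of 11 other cyclins, kinases and E2F genes, Cdk4, E2f3, E2f4 and E2f5 were higher in epithelium by 0.27 to 0.49, and Ccnd2 (-1.01) and Ccnd3 (-0.36) were higher in stroma, the opposite side from Ccnd1. The 4 of 11 in epithelium were 36.4%, against 28.4% of all genes, and the 2 of 11 in stroma stand against 34.6%. Without PV4, 2 of the 11 were higher in epithelium and 2 in stroma, against 4122 and 5042 of all 14881 genes.

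Other measures that varied among the same animals were these. The mean of 5 estrogen-induced epithelial genes ran from 5.35 in WT1 to 11.8 in WT3. It was 9.98 in PV4, 6.58 in WT4, 7.25 in WT7 and 9.39 in WT8, so that animals high in the members had both high and low values of it. The mean of the 2 squamous and basal markers was 3.19 to 4.00 in N/N and 3.27 to 6.15 in PV/N epithelium, with PV3 the highest and PV4 at 3.80. The fibroblast marker mean in epithelium was 6.94 ± 0.57 in N/N and 6.42 ± 0.64 in PV/N. The negative-probe level ran from 1.93 in PV4 to 4.23 in PV2, on the log2 CPM scale, and from 2.00 to 2.84 in N/N epithelium. Their part in the members' values was not tested.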

How the data were processed

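The NanoString GeoMx Mouse Whole Transcriptome Atlas was read on regions of fixed uterus. The authors deposited counts per target and region, with zeros set to 1 (0.825% of first-plate filtered values), handled here as estimated counts because the negative-probe row is an average that is not whole and stayed out of the tests. The authors also deposited a signal table of the same counts divided by each region's upper-quartile (Q3) factor, filtered on targets seen over background. The per-region probe count files, also deposited, were used for the true zeros. The submitters' processing notes name mm10, R 4.1.2 and Space Ranger. Nothing in the tables pooled animals.

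First-plate counts were summed per animal and compartment and tested with edgeR 4.0.16 in R 4.3.3 (TMM scaling, quasi-likelihood, two-sided, Benjamini-Hochberg over 14881 genes, threshold 0.05). Log2 CPM used a prior count of 2, and regions used log2(Q3 + 1). DESeq2 1.42.0, limma 3.58.1, other scalings, filters, plates, covariates and leaving out each animal were alternatives. Scripts were tested on simulated data. Labels name 14 animals and their design text 13. Replicate numbers only name animals, and the animal was the block between compartments. P-values are printed for only some of the named members, mainly Mki67, Pcna, Ccnd1 and those with the lowest p of their class. Other members are named with values only, some with the SE. Members and lists were chosen with earlier results of these data known. Captured regions share sections, and the animals' number limits precision, as do the counts of PV2.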

Additional observations from a re-analysis of the deposited data

Results flagged for a closer look

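In each compartment and genotype, the highest or lowest animal was set against the others by its gap to the nearest value divided by the whole range, for each of the 40 members and both class means. Of 168 such tests 18 (10.7%) passed the 95% limit, which a single test passes by chance about 1 time in 20. The tests share animals, and the class means are made of the members, so they are not independent. The share is therefore no measure of an excess over chance. In PV/N epithelium PV4 was the far high animal for Plk1 (0.724), Ccne2 (0.670), Mcm2 (0.630), Foxm1 (0.660) and the S-phase class mean (0.668). In N/N epithelium WT8 was far above the others for Ccne1 (0.561). In PV/N stroma PV3 was far high for Plk1 (0.771), Ccne1 (0.626) and Foxm1 (0.674), PV2 far low for Mcm3 (0.662) and PV5 far low for Mybl2 (0.708). In N/N stroma WT8 was far low for Mki67 (0.568), Plk1 (0.794) and Ube2c (0.725), WT5 far low for Mcm7 (0.579), WT4 far high for Pcna (0.619), and WT4 far low for Rrm2 (0.603) and Prc1 (0.590). PV4's marks were all in epithelium and PV3's all in stroma, and WT8's stromal sum held 1 region. Several far low values lay near background. Mcm3 in PV2, Mybl2 in PV5 and Plk1 in WT8 were 0.844, 0.695 and 0.520 times the negative-probe level. Mki67 and Ube2c in WT8 and Prc1 in WT4 were 1.56, 1.30 and 1.24 times it.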

How the results depend on the processing

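Between compartments the count of members past the threshold was 6 and moved to 2 with upper-quartile scaling, 2 with limma on mean log2(Q3 + 1), 0 on both plates, 0 on the second plate alone, 3 with only animals of at least 2 regions, 12 without the replicate block, 1 in N/N and 10 in PV/N animals alone, and 3 without region 7 of PV1, a setting added after seeing the data. Over all 14881 genes, 3431 were higher in epithelium in N/N animals alone and 3106 in PV/N animals alone. They numbered 2967 with limma, 2507 on both plates, 4159 with at least 2 regions, 3705 without the block and 4206 without region 7. The second plate alone called 0 of all genes, so its 0 says nothing about the members. Leaving out 1 animal gave 3 to 11 members, with 4002 (without WT3) to 4326 (without PV6) of all genes higher in epithelium. Upper-quartile scaling moved the median of all genes from -0.05 to -0.18, with 3241 of 9684 calls higher in epithelium against 4229 of 9380. Between genotypes in epithelium, regions taken as independent samples gave 23 members against 0. That setting called 3175 of all 14881 genes, 1860 of them higher in PV/N, and regions of 1 animal are not replicates. The other 114 counts stayed within 1.5 times, but those between genotypes were 0 against 0 and say nothing about stability. The 15 members at an unadjusted p under 0.05 in epithelium were 3 with upper-quartile scaling, 0 with limma, 8 with DESeq2, 9 with a robust prior, 5 after background subtraction, 22 without a gene filter, 1 on both plates, and from 0 without PV4 to 32 without PV1 when 1 animal was left out. Over all genes, in either direction, the 1223 of the main setting were 1170 with upper-quartile scaling, 801 with limma and 1033 with DESeq2. They were 1152 with a robust prior, 1009 after background subtraction, 1466 of 19962 without a gene filter and 892 on both plates. Without PV4 they were 951 and without PV1 1261. Mki67 between compartments turned to -0.11 on both plates and -0.10 without PV4, the lowest of a range up to 0.50 over the animals left out. In stroma between genotypes, both plates turned Mcm4 to 0.077, Tyms to 0.30, Ube2c to 0.057 and Foxm1 to 0.088. Mki67 turned to 0.29 with age as a covariate, 0.16 at ages 4 to 6.3, 0.14 without PV4 and 0.11 without WT3, in a range from -0.25 over the animals left out, and E2f1 to 0.026 and 0.018 in the 2 age settings. In the interaction Ccnd1 turned to 0.21 with limma, 0.062 with at least 2 regions, 0.31 without PV1, 0.025 without PV6 and 0.096 without WT8, in a range from -0.56, and both plates turned Pcna to -0.062 and Mcm3 to -0.15. None of these had passed the test, and the cause was not tested. Depth limits PV2 most.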
